A study of Homo sapiens with 24 samples.

Results

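The genes described here are 10 members of the autophagy and mitophagy machinery: BNIP3, BNIP3L, FUNDC1, PINK1, ULK1, MAP1LC3B, GABARAPL1, GABARAPL2, BECN1 and WIPI1. They were chosen by name from the 58735 genes of the deposited count tables, with earlier results of these data known. All 10 were among the 19952 genes with enough counts to be tested. The study sequenced the messenger RNA of HEK293T cells, a line derived from human embryonic kidney, in 3 genotypes: WT without edits, MIR210-KO, labelled a knockout of the microRNA gene of miR-210, and MIR210HG-KO, labelled a knockout of the long non-coding host gene of that microRNA. Each genotype was kept for 24 h at 21% oxygen (normoxia) or 1% oxygen (hypoxia) in high-glucose DMEM with 10% fetal bovine serum, with 4 libraries in each of the 6 groups. Neither the clonality of the knockouts nor the origin of the 4 libraries (separate cultures or one) is given by the labels, so p-values measure only the spread between these libraries, which may be technical.

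Autophagy wraps part of the cytoplasm in a double membrane, the phagophore, which closes into an autophagosome and fuses with lysosomes. A kinase complex built on ULK1 starts the process, a lipid kinase complex that contains BECN1 marks the membrane with PI3P, WIPI proteins read that mark, and small ubiquitin-like ATG8 proteins (the LC3 and GABARAP families) are attached to the membrane and hold the cargo. Mitochondria are removed in this way either through receptors in their outer membrane (BNIP3, BNIP3L and FUNDC1), which bind ATG8 proteins directly, or through a ubiquitin mark that the kinase PINK1 starts. BNIP3 and BNIP3L are known targets of the hypoxia-inducible factors, and miR-210 is itself a microRNA of the hypoxic response.

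The sequences that bear on these genes are the microRNA after which MIR210-KO is named and the stretches just upstream of 3 members. The mature miR-210-3p (chr11:568112-568133, minus strand, GRCh38.p14, RefSeq) is shown with its seed, bases 2 to 8, in capitals.
miR-210-3p: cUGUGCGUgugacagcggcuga
No seed match (ACGCACA or CGCACAA, searched in 1 GENCODE 29 transcript per gene) was found in the 3′ UTR of any of the 10 members. Such a match was present in 643 of 18511 genes with a 3′ UTR of at least 50 bases, which is 3.47%. The upstream sequences were taken from RefSeq promoters (GRCh38.p14) and are written in the direction of transcription, up to the first base of any GENCODE 29 exon of the gene. Capitals mark the core of the hypoxia response element, ACGTG or GCGTG on either strand, so that CACGT and CACGC are the same cores read from the other strand. BNIP3 (chr10:131982014-131982173, minus strand) is shown because it had the most cores and one of the largest oxygen responses, ULK1 (chr12:131894372-131894621, plus strand) because it has a core and fell, and GABARAPL2 (chr16:75566129-75566350, plus strand) because it has cores and passed no oxygen test.
BNIP3: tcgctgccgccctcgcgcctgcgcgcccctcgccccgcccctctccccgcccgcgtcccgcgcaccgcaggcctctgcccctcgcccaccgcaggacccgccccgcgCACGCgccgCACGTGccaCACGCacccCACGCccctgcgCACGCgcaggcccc
ULK1: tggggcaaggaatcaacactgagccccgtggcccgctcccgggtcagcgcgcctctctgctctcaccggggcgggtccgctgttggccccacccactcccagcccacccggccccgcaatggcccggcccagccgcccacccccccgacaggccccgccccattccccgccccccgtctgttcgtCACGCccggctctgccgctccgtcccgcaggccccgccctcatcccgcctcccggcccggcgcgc
GABARAPL2: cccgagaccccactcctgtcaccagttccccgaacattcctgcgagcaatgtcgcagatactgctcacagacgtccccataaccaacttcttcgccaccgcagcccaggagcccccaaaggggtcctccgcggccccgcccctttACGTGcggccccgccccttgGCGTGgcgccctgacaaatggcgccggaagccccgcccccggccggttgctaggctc
In the 250 bases before the RefSeq start, BNIP3 held 6 cores, between 143 and 104 bases before the start. The palindrome CACGTG in it holds a pair of overlapping cores, one per strand. MAP1LC3B held 4 cores, GABARAPL2 2 and ULK1 1, and none was found in GABARAPL1, WIPI1, FUNDC1 or BECN1. At least 1 core was present in 43.2% of 35116 promoters of that length, so a match is a description of the letters and not a site. The promoter table matched 8 of the 10 members, all but BNIP3L and PINK1.

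The members together took 0.0463% to 0.0503% of all counts in the normoxia libraries and 0.0859% to 0.0987% in the hypoxia libraries. Over all 24 libraries, depth ran from 25556776 to 37858947 counts. Levels below are CPM, read counts scaled to library size by the TMM method, and differences are log2 fold changes ± their standard error. A gene is called when its adjusted p, over all 19952 genes, is under 0.05 in edgeR's two-sided quasi-likelihood F test, and adjusted p values below are from that test unless another tool is named. As a check of the labels, MIR210HG was at 0 counts in all 8 MIR210HG-KO libraries. It stood at 5.70 CPM in normoxia WT and 19.1 CPM in hypoxia WT, and at 3.48 and 20.7 CPM in the MIR210-KO groups. Against WT, MIR210HG in MIR210-KO was lower in normoxia (-0.71 ± 0.15, adjusted p = 0.00044) and not called in hypoxia (0.12 ± 0.12). Loss of miR-210 itself in MIR210-KO was not checked. All 7 marker genes of HEK293T cells were at 1 CPM or more in every group, and 9 of 12 markers of other cell types were under 1 CPM in every group. The exceptions, by group mean, were the fibroblast markers COL1A1 (15.1 to 33.0 CPM) and COL3A1 (1.67 to 15.9 CPM). The liver marker ALB also reached 3.08 CPM. The balance of long against short genes, a measure known to move with RNA quality and library preparation, ran from -0.34 to -0.13 (log2) in the normoxia libraries and from -0.09 to 0.36 in the hypoxia libraries. Its part in the oxygen results was not tested, beyond a fit with the balance as a covariate. That fit is given with each member whose call it changed. The ranges of the balance at 21% and 1% oxygen do not overlap. A call between oxygen levels that is lost in this fit thus cannot be put down to either. Within groups, hypoxia WT 1 and 3 (0.02 and -0.09) stood apart from hypoxia WT 2 and 4 (0.36 and 0.25), as did hypoxia MIR210-KO 1 from its group, and normoxia MIR210HG-KO 3 stood apart in the levels of ULK1. Calls that change without these 4 libraries (hypoxia WT 1 and 3, hypoxia MIR210-KO 1 and normoxia MIR210HG-KO 3) are given with the member they touch. Hypoxia WT split into pairs, and which pair to leave out was a choice. Normoxia MIR210HG-KO 3 was singled out by ULK1, so values of ULK1 without it are no test of ULK1. Each oxygen level has its own deposited table, so oxygen and table cannot be told apart. In bulk RNA, fewer cells with a transcript and less of it per cell cannot be told apart either.

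**Figure D1:**
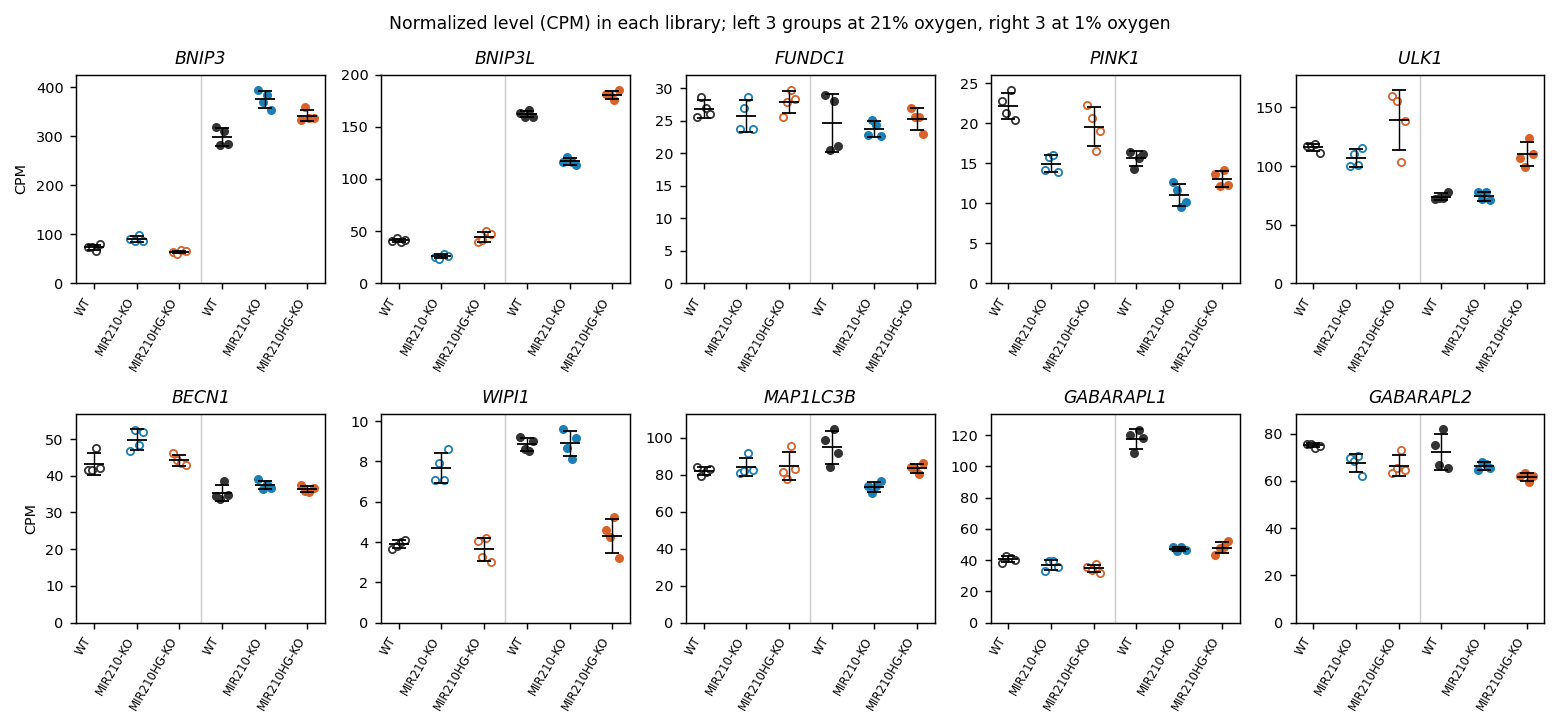
Normalized level (CPM, linear axes from 0) of the 10 members in each of the 24 libraries, 3 groups at 21% oxygen (open circles) on the left of each panel and 3 at 1% oxygen (filled circles) on the right. Horizontal marks and bars are the mean and SD of 4 libraries. BNIP3 and BNIP3L are high in all 3 hypoxia groups, GABARAPL1 is high in hypoxia WT alone, and WIPI1 is low in normoxia WT and in both MIR210HG-KO groups.

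BNIP3, an outer membrane receptor that recruits ATG8 proteins to mitochondria (chr10:131966455-131982013, minus strand, GRCh38), rose 4.08-fold at low oxygen in WT cells. It stood at 74.0, 74.0, 66.3 and 79.3 CPM in the normoxia WT libraries and at 319, 282, 312 and 284 CPM in the hypoxia WT libraries. MIR210-KO gave 91.4, 86.4, 98.3 and 85.6 CPM in normoxia and 395, 370, 384 and 355 CPM in hypoxia. MIR210HG-KO gave 64.3, 60.4, 67.0 and 65.0 CPM in normoxia and 334, 359, 338 and 337 CPM in hypoxia. Every hypoxia library was thus above every normoxia library of its genotype, and MIR210-KO had the highest mean at both oxygen levels, with every library above all WT libraries. The oxygen response was 2.03 ± 0.060 in WT (adjusted p = 9.23e-23), 2.05 ± 0.060 in MIR210-KO (1.13e-22) and 2.41 ± 0.061 in MIR210HG-KO (2.46e-24). The response of MIR210HG-KO was larger than that of WT by 0.39 ± 0.083 (adjusted p = 0.000826) and larger than that of MIR210-KO by 0.36 ± 0.082 (adjusted p = 0.0104), while that of MIR210-KO differed from WT by 0.03 ± 0.082 (adjusted p = 0.846).

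Between genotypes, BNIP3 was higher in MIR210-KO than in WT by 0.30 ± 0.059 in normoxia (adjusted p = 9.10e-05) and by 0.33 ± 0.057 in hypoxia (1.03e-05). The 46 other tested genes within 5 Mb of BNIP3 had a median difference of 0.11 and 0.44 in these comparisons, and their part in the BNIP3 difference was not tested. In MIR210HG-KO the sign depended on oxygen: BNIP3 was 0.19 ± 0.060 lower than WT in normoxia (log2 change -0.19, adjusted p = 0.0111) and 0.19 ± 0.057 higher in hypoxia (adjusted p = 0.00463). In normoxia these groups overlapped in 1 pair of libraries, and the call was lost without normoxia WT 4 (-0.14, adjusted p = 0.101) or without normoxia MIR210HG-KO 2 (-0.15, 0.0793). In hypoxia the lowest MIR210HG-KO library, at 334 CPM, was above the highest WT library, at 319 CPM. Of the knockouts, MIR210HG-KO had less BNIP3 than MIR210-KO in normoxia (-0.49 ± 0.060, adjusted p = 2.09e-08). In hypoxia that difference was -0.13 ± 0.057 (adjusted p = 0.0444), with overlapping libraries, and it lost its call under DESeq2 (-0.10, adjusted p = 0.123), with the covariate (-0.06, 0.324) and in most fits that left out a library.

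BNIP3L, also called NIX, is the closest relative of BNIP3, lies on chromosome 8 and is known for clearing mitochondria from maturing red cells. It rose 3.95-fold at low oxygen in WT, 4.53-fold in MIR210-KO and 4.05-fold in MIR210HG-KO, and unlike BNIP3 it was lower in MIR210-KO than in the other genotypes. The normoxia WT libraries held 40.1, 43.2, 39.3 and 41.5 CPM and the hypoxia WT libraries 163, 160, 166 and 160 CPM. The MIR210-KO libraries held 25.3, 23.7, 28.1 and 26.0 CPM in normoxia and 117, 121, 116 and 114 CPM in hypoxia. The MIR210HG-KO libraries held 39.5, 41.7, 50.3 and 46.8 CPM in normoxia and 182, 181, 175 and 185 CPM in hypoxia. At each oxygen level all MIR210-KO libraries lay below all libraries of the other genotypes. Its response to low oxygen was 1.98 ± 0.061 in WT (adjusted p = 2.38e-22), 2.18 ± 0.063 in MIR210-KO (1.13e-22) and 2.02 ± 0.061 in MIR210HG-KO (1.98e-22). Neither knockout's response differed from that of WT at the threshold (differences of 0.20 ± 0.086, adjusted p = 0.0856, and 0.04 ± 0.084, adjusted p = 0.789). Without the 4 libraries that stand apart, the former was called (0.22, adjusted p = 0.0265).

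Against WT, BNIP3L in MIR210-KO fell by 0.67 ± 0.064 in normoxia (1.59-fold lower, adjusted p = 2.19e-10) and by 0.47 ± 0.058 in hypoxia (1.39-fold lower, 2.43e-08). In MIR210HG-KO the difference from WT was 0.12 ± 0.062 in normoxia (adjusted p = 0.139) and 0.16 ± 0.057 in hypoxia (adjusted p = 0.0200), and the latter missed the threshold without hypoxia MIR210HG-KO 4 (0.15, adjusted p = 0.0566). BNIP3L shares 330 of its 4307 exon bases (7.66%) with PNMA2 on the other strand, and the strand setting of the counting is not stated. Against WT, PNMA2 in MIR210-KO was lower in normoxia (-0.81), and its difference missed the threshold in hypoxia (0.14 ± 0.073, adjusted p = 0.0976). In the oxygen comparisons PNMA2 was not called in WT (-0.02 ± 0.074) but was higher in MIR210-KO (0.93 ± 0.077) and MIR210HG-KO (0.64 ± 0.079). Its part in the BNIP3L values was not tested. The medians of the 89 tested genes within 5 Mb of BNIP3L were 0.01 and 0.02 for MIR210-KO against WT.

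Per base of gene length, BNIP3 outweighed BNIP3L in every library, and by most in MIR210-KO. The ratio of the counts per base was 1.45 ± 0.086 (SD, n = 4) in normoxia WT and 1.49 ± 0.073 in hypoxia WT. It was 2.84 ± 0.13 and 2.60 ± 0.13 in MIR210-KO, and 1.17 ± 0.10 and 1.53 ± 0.063 in MIR210HG-KO. The lowest MIR210-KO library, at 2.47, was above the highest library of the other genotypes, at 1.61. In WT the ratio overlapped between oxygen levels.

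**Figure D2:**
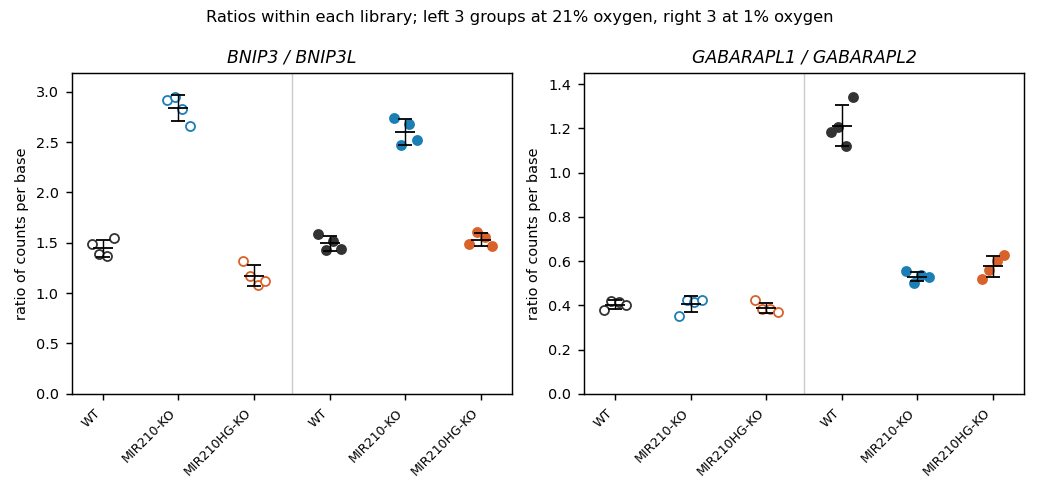
Ratio of counts per base of gene length within each library, BNIP3 over BNIP3L on the left and GABARAPL1 over GABARAPL2 on the right (linear axes from 0; open circles 21% oxygen, filled circles 1% oxygen, marks and bars mean and SD of 4 libraries). The first ratio is 2.47 or more in all 8 MIR210-KO libraries, and the second is above 1 in the 4 hypoxia WT libraries alone.

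FUNDC1, the receptor whose activity in hypoxia is known to be set mainly by phosphorylation (chrX:44523639-44543001, minus strand), passed no test in any of the 12 comparisons. Its group means lay between 23.7 and 27.9 CPM. The hypoxia WT libraries did not form one level: WT 1 and 3 stood at 28.9 and 28.1 CPM, and WT 2 and 4 at 20.5 and 21.0 CPM. The oxygen response in WT was -0.12 ± 0.090 (adjusted p = 0.24) with all libraries and -0.37 (adjusted p = 5.31e-05) without the 4 that stand apart. Likewise the difference of MIR210-KO from WT in hypoxia changed sign, from -0.05 ± 0.089 (adjusted p = 0.654) to 0.21 (adjusted p = 0.0256), and that of MIR210HG-KO from WT went from 0.04 ± 0.089 (adjusted p = 0.718) to 0.29 (adjusted p = 0.00158). The difference between the oxygen responses of MIR210-KO and WT was 0.27 (adjusted p = 0.0429) without them and 0.01 ± 0.13 with them. With the covariate, FUNDC1 was called between the knockouts, higher in MIR210HG-KO in normoxia (0.19, adjusted p = 0.0398; 0.12 ± 0.091 without it) and in hypoxia (0.24, 0.0145; 0.09 ± 0.090 without it). Values of FUNDC1 that involve hypoxia WT thus rest on the choice of its libraries.

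PINK1, the kinase that builds up on damaged mitochondria and phosphorylates ubiquitin there (chr1:20633455-20651511, plus strand), fell at low oxygen in all 3 genotypes and was lower in MIR210-KO than in WT. The normoxia WT libraries held 22.8, 21.3, 24.1 and 20.4 CPM and the hypoxia WT libraries 16.4, 14.3, 15.7 and 16.1 CPM. MIR210-KO held 14.1, 15.7, 16.0 and 13.9 CPM in normoxia and 12.6, 11.6, 9.54 and 10.2 CPM in hypoxia. MIR210HG-KO held 22.2, 20.6, 16.5 and 19.0 CPM in normoxia and 13.6, 12.1, 14.1 and 12.2 CPM in hypoxia. All hypoxia libraries were below all normoxia libraries of their genotype, and normoxia MIR210-KO lay at the level of hypoxia WT. Between oxygen levels it changed by -0.51 ± 0.089 in WT (adjusted p = 1.11e-05), -0.44 ± 0.094 in MIR210-KO (0.000183) and -0.58 ± 0.092 in MIR210HG-KO (2.39e-06). With the balance of long against short genes as a covariate, the last pair were -0.24 (adjusted p = 0.125) and -0.33 (0.086) and lost their calls. MIR210-KO differed from WT by -0.57 ± 0.091 in normoxia (adjusted p = 4.70e-06) and -0.50 ± 0.092 in hypoxia (2.24e-05), without overlap. MIR210HG-KO differed by -0.18 ± 0.090 in normoxia (adjusted p = 0.125) and -0.26 ± 0.091 in hypoxia (0.0173), a call that was lost without hypoxia MIR210HG-KO 2 (-0.22, adjusted p = 0.0662) or 4 (-0.22, 0.061) and with the covariate (-0.17, 0.111). PINK1 shares 1907 of its 4836 exon bases (39.4%) with PINK1-AS on the other strand, so the counts of the pair are uncertain without strand. PINK1-AS was at 2.79 CPM in normoxia WT and 1.53 CPM in hypoxia WT, and in hypoxia it moved the other way from PINK1 in both knockouts (0.50 and 0.75 above WT).

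ULK1, the kinase that starts autophagosome formation and that nutrient and energy sensors regulate (chr12:131894651-131923167, plus strand), fell at low oxygen and was highest in MIR210HG-KO. The normoxia WT libraries held 117, 117, 119 and 111 CPM and the hypoxia WT libraries 71.5, 73.1, 72.3 and 78.0 CPM. MIR210-KO held 99.6, 110, 101 and 115 CPM in normoxia and 77.7, 71.5, 77.4 and 70.6 CPM in hypoxia. MIR210HG-KO held 160, 155, 103 and 139 CPM in normoxia and 107, 99.5, 124 and 110 CPM in hypoxia. Normoxia MIR210HG-KO 3, at 103 CPM, was the one library of its group below WT, and its level falls among those of hypoxia MIR210HG-KO. The oxygen response was -0.65 ± 0.086 in WT (adjusted p = 7.69e-08), -0.52 ± 0.086 in MIR210-KO (4.78e-06) and -0.34 ± 0.085 in MIR210HG-KO (0.00113). The last of these overlapped between oxygen levels and lost its call with the covariate (-0.26, adjusted p = 0.18). The difference of that response from WT, 0.31 ± 0.12, missed the threshold (adjusted p = 0.0578). It passed when normoxia MIR210HG-KO 1 or 2, hypoxia MIR210HG-KO 2 or hypoxia WT 4 was left out, with values of 0.38, 0.37, 0.36 and 0.34, and with the covariate (0.34). It was smaller, at 0.20, and missed the threshold without normoxia MIR210HG-KO 3, the library singled out by its ULK1 level. Without the 4 libraries that stand apart, that library among them, the difference was 0.16 and also missed the threshold. Against WT, ULK1 in MIR210HG-KO was higher by 0.58 ± 0.085 in hypoxia (1.49-fold, adjusted p = 8.67e-07), with no overlap, and by 0.27 ± 0.085 in normoxia (adjusted p = 0.0144), with overlap. The normoxia call was lost without MIR210HG-KO 1 (0.21, adjusted p = 0.0648) or 2 (0.22, 0.0589). MIR210-KO differed from WT by -0.12 ± 0.085 in normoxia (adjusted p = 0.269) and 0.01 ± 0.086 in hypoxia (0.921).

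BECN1, the scaffold of the lipid kinase complex (chr17:42810134-42833350, minus strand), fell modestly at low oxygen in every genotype. The WT libraries ran from 41.6 to 47.5 CPM in normoxia and from 33.7 to 38.6 CPM in hypoxia. The changes were -0.29 ± 0.058 in WT (adjusted p = 6.98e-05), -0.41 ± 0.058 in MIR210-KO (3.50e-07) and -0.28 ± 0.058 in MIR210HG-KO (0.000121), without overlap between oxygen levels. With the covariate, the last was -0.14 (adjusted p = 0.263). Against WT, BECN1 was 0.21 ± 0.058 higher in MIR210-KO in normoxia (adjusted p = 0.00393), with overlapping libraries, and was not called in hypoxia (0.09 ± 0.058) or in MIR210HG-KO (0.04 ± 0.058 at each oxygen level). BECN1 shares 300 of 6414 exon bases (4.68%) with PSME3, which was more abundant (289 CPM in normoxia WT) and whose own oxygen response in WT was -1.17 ± 0.047. The part of PSME3 reads in the BECN1 result was not tested.

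WIPI1, which binds PI3P on the growing phagophore (chr17:68420948-68457513, minus strand), rose at low oxygen in WT, was already high in normoxia in MIR210-KO and stayed low in hypoxia in MIR210HG-KO. Its WT libraries held 3.67, 3.81, 4.02 and 4.11 CPM in normoxia and 9.21, 8.64, 8.50 and 9.02 CPM in hypoxia. MIR210-KO held 7.10, 7.92, 7.06 and 8.63 CPM in normoxia and 9.60, 8.66, 8.14 and 9.19 CPM in hypoxia. MIR210HG-KO held 4.05, 3.26, 4.21 and 3.03 CPM in normoxia and 4.59, 4.23, 5.24 and 3.20 CPM in hypoxia. In hypoxia MIR210-KO thus overlapped WT, and in normoxia MIR210HG-KO did. MIR210-KO was high at both oxygen levels and MIR210HG-KO low at both. Its response to low oxygen was 1.18 ± 0.12 in WT (2.26-fold, adjusted p = 4.16e-10), 0.21 ± 0.11 in MIR210-KO (adjusted p = 0.102) and 0.25 ± 0.13 in MIR210HG-KO (adjusted p = 0.0965). The response in MIR210HG-KO was called without normoxia MIR210HG-KO 3 (0.34, adjusted p = 0.0378), without hypoxia MIR210HG-KO 4 (0.36, 0.016) and without the 4 libraries that stand apart (0.33, 0.0383). It was smaller, at 0.14 (adjusted p = 0.407), without hypoxia MIR210HG-KO 3. Both knockout responses were smaller than that of WT, with differences of -0.96 ± 0.16 (adjusted p = 3.99e-05) and -0.93 ± 0.18 (0.000235), in tests that share the WT libraries.

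Compared with WT, WIPI1 was 1.96-fold higher in MIR210-KO in normoxia (0.97 ± 0.12, adjusted p = 7.41e-08) and differed by 0.01 ± 0.11 in hypoxia (adjusted p = 0.947). MIR210HG-KO differed by -0.10 ± 0.13 in normoxia (adjusted p = 0.609) and was 2.03-fold lower in hypoxia (-1.02 ± 0.12, adjusted p = 6.14e-09). The 87 other tested genes within 5 Mb of WIPI1 had median differences between MIR210-KO and WT of 0.40 in normoxia and 0.44 in hypoxia, with 49 and 54 of them called higher. In MIR210HG-KO against WT these medians were -0.06 and 0.00. The part of this region in the WIPI1 levels of MIR210-KO was not tested. WIPI1 also shares 828 of its 3402 exon bases (24.3%) with ARSG on the other strand. ARSG was lower in MIR210HG-KO than in WT at both oxygen levels (-0.63 and -0.72) and was not called in the oxygen comparison of WT (0.19 ± 0.11, adjusted p = 0.153). Its oxygen response was called in MIR210-KO (0.34 ± 0.11) and not in MIR210HG-KO (0.10 ± 0.13).

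GABARAPL1, an ATG8 protein of the GABARAP branch (chr12:10212458-10223130, plus strand), showed the largest knockout difference among the members, and it showed it at low oxygen in both knockouts. The normoxia libraries held 38.4, 42.6, 41.4 and 40.2 CPM in WT, 33.0, 39.3, 39.4 and 35.4 CPM in MIR210-KO, and 35.9, 33.8, 37.5 and 32.0 CPM in MIR210HG-KO. The hypoxia WT libraries held 120, 109, 123 and 118 CPM. Those of MIR210-KO held 48.2, 46.0, 48.5 and 46.3 CPM, and those of MIR210HG-KO 43.5, 48.0, 48.1 and 52.4 CPM. The lowest hypoxia WT library was thus above the highest library of every other group, while all knockout libraries in hypoxia still lay above all normoxia libraries of their own genotype. The log2 response to 1% oxygen was 1.53 ± 0.064 in WT (2.89-fold, adjusted p = 5.31e-19), 0.36 ± 0.065 in MIR210-KO (1.29-fold, 1.70e-05) and 0.46 ± 0.065 in MIR210HG-KO (1.38-fold, 4.04e-07). Both knockout responses were smaller than that of WT, with a difference of -1.17 ± 0.091 for MIR210-KO (adjusted p = 3.03e-11) and -1.07 ± 0.091 for MIR210HG-KO (4.29e-10), and the knockouts differed by 0.10 ± 0.092 (adjusted p = 0.642). In hypoxia GABARAPL1 was 2.49-fold lower in MIR210-KO than in WT (-1.32 ± 0.063, adjusted p = 9.99e-18) and 2.45-fold lower in MIR210HG-KO (-1.29 ± 0.063, 2.68e-17). In normoxia the differences were -0.15 ± 0.066 (adjusted p = 0.0739) and -0.22 ± 0.066 (0.00805), and the latter was lost without normoxia MIR210HG-KO 4 (-0.18, adjusted p = 0.0613). The former was called without the libraries that stand apart (-0.15, adjusted p = 0.0314) and with the covariate (-0.17, 0.0178). The 127 tested genes within 5 Mb of GABARAPL1 had medians of 0.10 and -0.01 for the knockouts against WT in hypoxia.

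**Figure D3:**
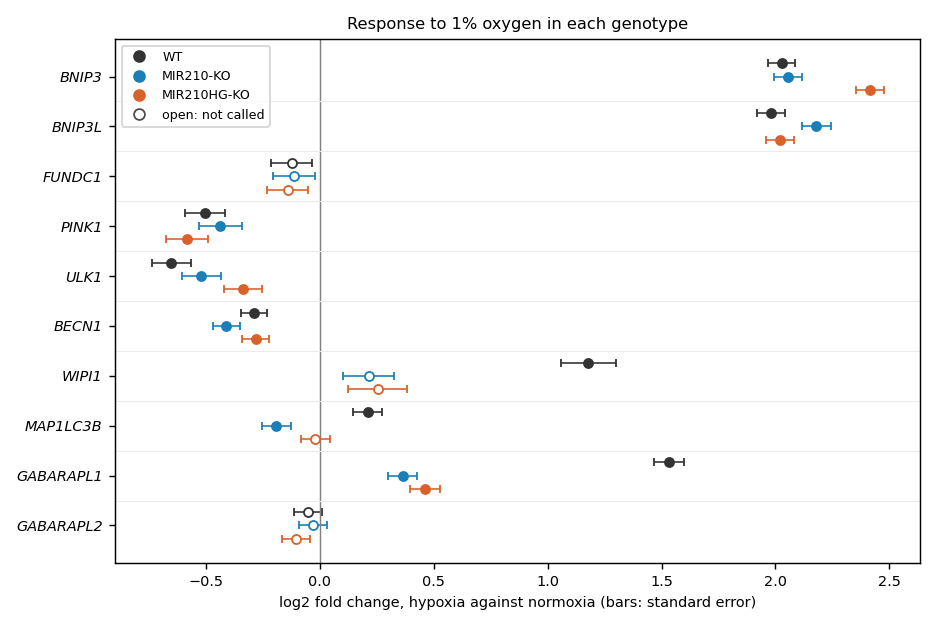
Response to 1% oxygen (log2 fold change, hypoxia against normoxia, with standard error bars) of the 10 members in WT (black), MIR210-KO (blue) and MIR210HG-KO (orange), open where the adjusted p is 0.05 or more. BNIP3 and BNIP3L lie near 2 in all genotypes, and GABARAPL1 and WIPI1 lie farther to the right in WT (1.53 and 1.18) than in either knockout.

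MAP1LC3B encodes LC3B, the ATG8 protein most used as a marker of autophagosomes (chr16:87383995-87404779, plus strand), and its changes were small. Its libraries held 84.0, 79.2, 81.3 and 83.2 CPM in normoxia WT and 98.7, 84.0, 104 and 91.9 CPM in hypoxia WT. Those of MIR210-KO held 80.7, 81.7, 91.4 and 82.2 CPM in normoxia and 73.9, 69.9, 73.9 and 76.4 CPM in hypoxia. Those of MIR210HG-KO ran from 77.7 to 95.4 CPM in normoxia and from 80.1 to 86.2 CPM in hypoxia. Hypoxia MIR210-KO was the lowest group, below every library of the other 5 groups. Its oxygen response was 0.21 ± 0.063 in WT (adjusted p = 0.00474), -0.19 ± 0.063 in MIR210-KO (0.0101) and -0.02 ± 0.063 in MIR210HG-KO (0.804). The rise in WT overlapped between oxygen levels and missed the threshold without the 4 libraries that stand apart (0.10, adjusted p = 0.11). The fall in MIR210-KO was lost under upper quartile scaling (-0.05, adjusted p = 0.51), with the covariate (-0.04, 0.749) and without normoxia MIR210-KO 3 (-0.15, 0.0672). The responses of MIR210-KO and WT differed by -0.40 ± 0.089 (adjusted p = 0.00096), and those of MIR210HG-KO and WT by -0.23 ± 0.089 (adjusted p = 0.0607). The latter passed without normoxia MIR210HG-KO 2 (-0.27, adjusted p = 0.0412) or hypoxia WT 2 (-0.29, 0.0131). It was -0.17 without normoxia MIR210HG-KO 3 and -0.06 (adjusted p = 0.631) without the 4 libraries that stand apart. In hypoxia MAP1LC3B was lower than WT in MIR210-KO (-0.37 ± 0.063, adjusted p = 9.02e-06), without overlap, and in MIR210HG-KO (-0.19 ± 0.063, 0.0126). The call in MIR210HG-KO was lost without hypoxia WT 3 (-0.12, adjusted p = 0.117), without hypoxia MIR210HG-KO 3 (-0.16, 0.0654), with the covariate (-0.12, 0.097) and without the 4 libraries (-0.08, 0.218), where the responses of the knockouts differed by 0.24 (adjusted p = 0.017; 0.17 ± 0.090 and 0.341 with all libraries). MAP1LC3B shares 150 of 5313 exon bases (2.82%) with FBXO31, whose oxygen response in WT was -0.34 ± 0.062. That of FBXO31 in the knockouts was -0.53 ± 0.063 (MIR210-KO) and -0.50 ± 0.062 (MIR210HG-KO).

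GABARAPL2, the ATG8 protein also known as GATE-16 (chr16:75566351-75577881, plus strand), passed no oxygen test: its changes were -0.05 ± 0.061 in WT, -0.03 ± 0.061 in MIR210-KO and -0.11 ± 0.061 in MIR210HG-KO. Its WT libraries ran from 73.9 to 75.6 CPM in normoxia and from 65.4 to 81.8 CPM in hypoxia, where WT 1 and 3 were the highest. Without the 4 libraries that stand apart the change in WT was -0.18 (adjusted p = 0.00211). It was lower in MIR210HG-KO than in WT in hypoxia (-0.23 ± 0.061, adjusted p = 0.00207), without overlap, a call that was lost without the libraries that stand apart (-0.10, adjusted p = 0.0982). In normoxia the difference was -0.17 ± 0.061 (adjusted p = 0.0275), a call that only 16 of 34 alternatives kept (DESeq2 gave -0.15, adjusted p = 0.0589). MIR210-KO differed from WT by -0.15 ± 0.061 in normoxia (adjusted p = 0.0504), without overlap, and was called without the libraries that stand apart (-0.15, adjusted p = 0.00356) and with the covariate (-0.17, 0.00681). In hypoxia that difference was -0.13 ± 0.061 (adjusted p = 0.0766), called with the covariate (-0.13, 0.0261). The knockouts differed in hypoxia by -0.10 ± 0.061 (adjusted p = 0.165), called without the libraries that stand apart (-0.11, 0.0329). Per base, GABARAPL1 was at 0.403 ± 0.019 (SD, n = 4) of GABARAPL2 in normoxia WT and at 1.21 ± 0.094 in hypoxia WT. In hypoxia this ratio was 0.530 ± 0.022 in MIR210-KO and 0.577 ± 0.047 in MIR210HG-KO, so the order of the pair at 1% oxygen was the reverse of that at 21% oxygen in WT alone.

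For members such as BECN1 (6414 bases), the deposited length equalled all annotated exon bases, which need not be the length of the expressed transcript. An order of genes per base thus depends on the annotation. By CPM, the first member in normoxia WT was ULK1 at 116, above GABARAPL2 at 74.9. Ordered by level per base of length (RPKM, from the gene lengths in the deposited tables), GABARAPL2 was the highest member in normoxia WT at 24.7 ± 0.28 (SD, n = 4). FUNDC1 followed at 19.1 ± 0.97, then MAP1LC3B at 15.4 ± 0.40, ULK1 at 15.2 ± 0.44 and BNIP3 at 13.8 ± 1.0. MAP1LC3B and ULK1 did not differ beyond their spread, nor did GABARAPL1 (9.95 ± 0.43) and BNIP3L (9.53 ± 0.40). BECN1 (6.73 ± 0.45), PINK1 (4.58 ± 0.34) and WIPI1 (1.15 ± 0.059) came last. In hypoxia WT the order began with BNIP3 (56.2 ± 3.6), BNIP3L (37.6 ± 0.69), GABARAPL1 (28.8 ± 1.5) and GABARAPL2 (23.8 ± 2.5), while MAP1LC3B (17.8 ± 1.7) and FUNDC1 (17.6 ± 3.2) did not differ beyond their spread. BNIP3 was also the first member in hypoxia MIR210-KO (70.5 ± 3.3) and hypoxia MIR210HG-KO (64.3 ± 2.2), with BNIP3L next, but GABARAPL1 was only sixth and seventh there (11.6 ± 0.31 and 11.7 ± 0.90).

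Counted over the members, 8 of 10 were called between oxygen levels in WT, against 60.3% of all genes tested: 5 were higher (29.6% of all genes) and 3 lower (30.7%). In MIR210-KO 7 were called (58.7% of all genes), 3 higher (29.3%) and 4 lower (29.5%). In MIR210HG-KO 6 were called (54.1% of all genes), 3 higher (25.7%) and 3 lower (28.3%). These shares are near the background, so the counts do not set the members apart. With the covariate, 3 were called in MIR210HG-KO, and the share called over all genes in that fit was not computed. BNIP3, BNIP3L and GABARAPL1 were higher in all 3 genotypes, PINK1, ULK1 and BECN1 lower in all 3, and FUNDC1 and GABARAPL2 were called in none. The median log2 change of the members was 0.08 in WT, -0.07 in MIR210-KO and -0.06 in MIR210HG-KO, beside 0.00, 0.04 and 0.03 over all genes.

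Differences between the oxygen responses were called for 3 of 10 members in MIR210-KO against WT (26.5% of all genes), which were GABARAPL1, WIPI1 and MAP1LC3B, all with a lower response in the knockout (14% of all genes). Without the 4 libraries that stand apart 5 were called. In MIR210HG-KO against WT 3 were called (22.5% of all genes): GABARAPL1 and WIPI1 with a lower response (12.2% of all genes) and BNIP3 with a higher one (10.2%). In this comparison 5 were called without normoxia MIR210HG-KO 2. For the fits that leave out libraries, the share called over all genes was not computed. Between the knockouts BNIP3 alone was called, 1 of 10 against 3.54% of all genes, with a higher response in MIR210HG-KO (2.03%). The comparisons with WT share the WT libraries, so their common members are not independent of each other.

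**Figure D4:**
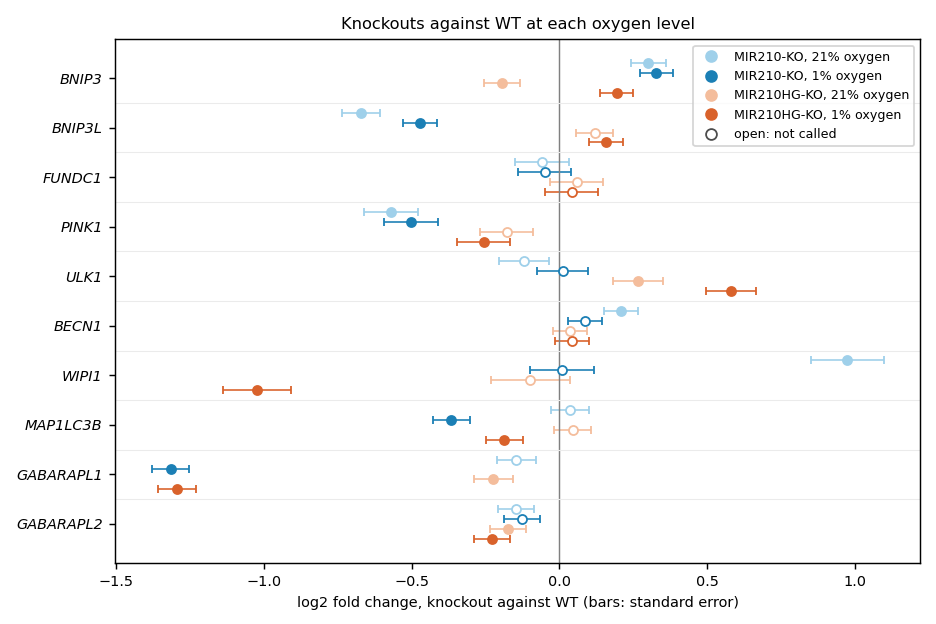
Difference of each knockout from WT (log2 fold change with standard error bars) at 21% oxygen (pale) and 1% oxygen (dark), MIR210-KO in blue and MIR210HG-KO in orange, open where the adjusted p is 0.05 or more. GABARAPL1 lies near -1.3 in both knockouts at 1% oxygen, BNIP3L and PINK1 lie left of 0 in MIR210-KO at both oxygen levels, and WIPI1 lies at 0.97 in MIR210-KO at 21% oxygen and at -1.02 in MIR210HG-KO at 1% oxygen.

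At 21% oxygen, MIR210-KO differed from WT in 5 of 10 members (44.2% of all genes), of which 3 were higher (22.6%) and 2 lower (21.6%). At 1% oxygen it also differed in 5 (55.9% of all genes), of which 1 was higher (28.2%) and 4 lower (27.7%). A fit to the compared groups alone called 8 in normoxia. For this fit, and for fits without single libraries, the share called over all genes was not computed. MIR210HG-KO differed from WT in 4 members in normoxia (35.2% of all genes), 1 higher (15.6%) and 3 lower (19.6%). In hypoxia 8 members differed (54.6% of all genes), 3 higher (24.4%) and 5 lower (30.2%). The normoxia count for MIR210HG-KO was between 1 and 4 when single libraries were left out, and moved by more than 1.5 times without normoxia WT 4, MIR210HG-KO 2 or MIR210HG-KO 4. The knockouts differed from each other in 6 members in normoxia (49.2% of all genes), 3 higher (23.4%) and 3 lower (25.8%) in MIR210HG-KO. In hypoxia they also differed in 6 (55.1% of all genes), 4 higher (26%) and 2 lower (29%). Among these, WIPI1 was 1.07 ± 0.12 and 1.03 ± 0.12 lower in MIR210HG-KO (log2 changes of -1.07 and -1.03), and BNIP3L was 0.79 ± 0.064 and 0.63 ± 0.058 higher, in normoxia and hypoxia. The 87 other tested genes within 5 Mb of WIPI1 had medians of -0.41 and -0.39 in these comparisons. Of those genes, 55 and 53 were called lower, and 1 and 2 higher. Their part in the WIPI1 difference was not tested. BNIP3L, PINK1, ULK1, WIPI1 and BNIP3 were called between the knockouts at both oxygen levels, with the same sign at each. For PINK1 the hypoxia difference of 0.25 ± 0.093 (adjusted p = 0.0260) was lost without hypoxia MIR210-KO 3 (0.18, adjusted p = 0.115) or 4 (0.22, 0.0681), or without hypoxia MIR210HG-KO 1 (0.24, 0.0527) or 3 (0.21, 0.08). BECN1 was called between the knockouts in normoxia only (-0.17 ± 0.058, adjusted p = 0.0142), and not without MIR210-KO 2 (-0.14, 0.0763) or 4 (-0.15, 0.067) or MIR210HG-KO 4 (-0.16, 0.0528). In that comparison the 234 other tested genes within 5 Mb of BECN1 had a median of -0.24, with 106 called lower and 16 higher. The part of this region in the BECN1 difference was not tested.

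The rest of the pathway was read through 85 other autophagy genes in 7 lists, of which 84 could be tested (MAP1LC3A had too few counts). In WT 65 of the 84 were called between oxygen levels, 33 higher and 32 lower. In MIR210-KO 67 were called (28 higher, 39 lower) and in MIR210HG-KO 57 (23 higher, 34 lower). Over all genes the called shares were the 60.3%, 58.7% and 54.1% given above, with 29.6%, 29.3% and 25.7% higher and 30.7%, 29.5% and 28.3% lower. Cargo receptors, which tie ubiquitin-marked or other cargo to ATG8 proteins, were called higher in 10 of 14 cases in WT, with 2 lower, and in 8 and 9 of 14 in the knockouts, with 3 lower in each, where 29.6%, 29.3% and 25.7% of all genes were higher. Their median change was 0.35 in WT, 0.23 in MIR210-KO and 0.32 in MIR210HG-KO, beside 0.00, 0.04 and 0.03 over all genes. Among them OPTN, a receptor for ubiquitin-coated mitochondria, rose by 1.59 ± 0.081 in WT, from 11.0 ± 0.79 to 33.2 ± 3.0 CPM (SD, n = 4), and CALCOCO2 (NDP52) rose by 0.97 ± 0.054. Both also rose in the knockouts, OPTN by 1.37 and 1.10 and CALCOCO2 by 0.60 and 0.51. The response of CALCOCO2 was smaller than in WT in both knockouts (-0.36 and -0.45, adjusted p = 0.000572 and 5.69e-05), and that of OPTN in MIR210HG-KO (-0.49 ± 0.12, adjusted p = 0.00379).

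Genes of autophagosome fusion and lysosomes were called lower in 10 of 15 cases in WT, with 1 higher, in 9 of 15 in MIR210-KO, with 3 higher, and in 9 of 15 in MIR210HG-KO, with 2 higher, where 30.7%, 29.5% and 28.3% of all genes were lower. Their median changes were -0.36, -0.22 and -0.33, beside the same medians over all genes. LAMP1, a main protein of the lysosomal membrane, fell by 1.07 ± 0.057 on the log2 scale in WT, and MCOLN1, a lysosomal calcium channel, fell by 0.99 ± 0.092. The corresponding changes were -0.77 and -0.81 in MIR210-KO and -0.68 and -0.80 in MIR210HG-KO. The fall of LAMP1 was smaller in both knockouts than in WT (differences of 0.30 and 0.39, adjusted p = 0.00414 and 0.00052).

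In the initiation complex, which ULK1 heads, 2 of 5 other genes were higher and 2 lower in WT, beside 29.6% and 30.7% of all genes. RB1CC1 (FIP200), the scaffold that binds ULK1, rose by 0.88 ± 0.066 in WT, from 110 ± 3.3 to 202 ± 18 CPM, by 0.40 in MIR210-KO and by 0.61 in MIR210HG-KO, while AMBRA1 fell (-0.32, -0.48 and -0.34). The rise of RB1CC1 was smaller in both knockouts (-0.48 and -0.28, adjusted p = 0.000183 and 0.0301). Of 13 genes for PI3P and phagophore growth, 5 were higher and 5 lower in WT, 2 and 8 in MIR210-KO and 2 and 7 in MIR210HG-KO. Beside these, the shares over all genes were 29.6% higher and 30.7% lower (WT), 29.3% and 29.5% (MIR210-KO), and 25.7% and 28.3% (MIR210HG-KO). ATG2A, which carries lipid to the phagophore, fell by 1.56 ± 0.095 in WT and the scramblase ATG9A fell by 0.94 ± 0.074. In MIR210-KO and MIR210HG-KO the changes were -1.16 and -1.10 for ATG2A and -0.70 and -0.55 for ATG9A. Those of ATG2A differed from WT in both knockouts (adjusted p = 0.0216 and 0.0102), and that of ATG9A in MIR210HG-KO (0.40, adjusted p = 0.00611) but not at the threshold in MIR210-KO (0.25, adjusted p = 0.0794).

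Of 13 other ATG8 and conjugation genes, 6 were higher and 4 lower in WT, 5 and 6 in MIR210-KO, and 4 and 5 in MIR210HG-KO. Over all genes, 29.6% were higher and 30.7% lower in WT, 29.3% and 29.5% in MIR210-KO, and 25.7% and 28.3% in MIR210HG-KO. MAP1LC3B2, a near-identical copy of MAP1LC3B whose reads are hard to assign, rose from 0.487 to 1.57 CPM in WT (1.69 ± 0.25), and GABARAP from 1.04 to 2.33 CPM (1.15 ± 0.29). Counts were low, at 8 to 16 (MAP1LC3B2) and 20 to 37 (GABARAP) per normoxia WT library. The rise of GABARAP was called in MIR210-KO (1.22 ± 0.31) and not in MIR210HG-KO (0.37 ± 0.30, adjusted p = 0.3). Among 15 other mitophagy genes, beside the same shares over all genes, 3 were higher and 8 lower in WT, 3 and 7 in MIR210-KO, and 1 and 8 in MIR210HG-KO. MUL1, a mitochondrial ubiquitin ligase, fell in all genotypes (-0.92, -0.83 and -0.65). PGAM5, a mitochondrial phosphatase known to act on FUNDC1, went from 227 to 122 CPM in WT, from 270 to 115 CPM in MIR210-KO and from 201 to 90.8 CPM in MIR210HG-KO (-0.90 ± 0.070, -1.23 ± 0.070 and -1.14 ± 0.071, all called). Its fall was larger in MIR210-KO than in WT (-0.33 ± 0.098, adjusted p = 0.0120), and the difference for MIR210HG-KO missed the threshold (-0.24 ± 0.098, adjusted p = 0.0761).

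Transcription factors known to act on autophagy genes rose in 6 of 9 cases in WT, with 1 lower, in 5 of 9 in MIR210-KO, with 3 lower, and in 3 of 9 in MIR210HG-KO, with none lower, where 29.6%, 29.3% and 25.7% of all genes were higher. Their median changes were 0.36, 0.17 and 0.00. DDIT3 (CHOP), a factor of the stress response, went from 6.62 ± 0.11 to 46.0 ± 7.9 CPM in WT, from 3.78 ± 0.57 to 9.46 ± 0.95 CPM in MIR210-KO and from 3.41 ± 0.51 to 13.5 ± 1.1 CPM in MIR210HG-KO. Its responses of 2.79 ± 0.11, 1.32 ± 0.13 and 1.98 ± 0.12 were all called, and those of the knockouts were smaller than that of WT (-1.47 ± 0.17, adjusted p = 7.43e-08, and -0.82 ± 0.17, adjusted p = 0.000629). MITF, of the family that drives lysosomal genes, rose by 0.99 ± 0.082 in WT and by 0.33 in each knockout, again less than in WT (-0.65 in each, adjusted p = 7.09e-05 and 0.000127). Over the 84 genes, the oxygen response differed from WT in 36 for MIR210-KO (11 with a positive and 25 with a negative difference, beside 12.5% and 14% of all genes). It differed in 30 for MIR210HG-KO (10 and 20, beside 10.2% and 12.2%) and between the knockouts in 5 (3.54% of all genes called).

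**Figure D5:**
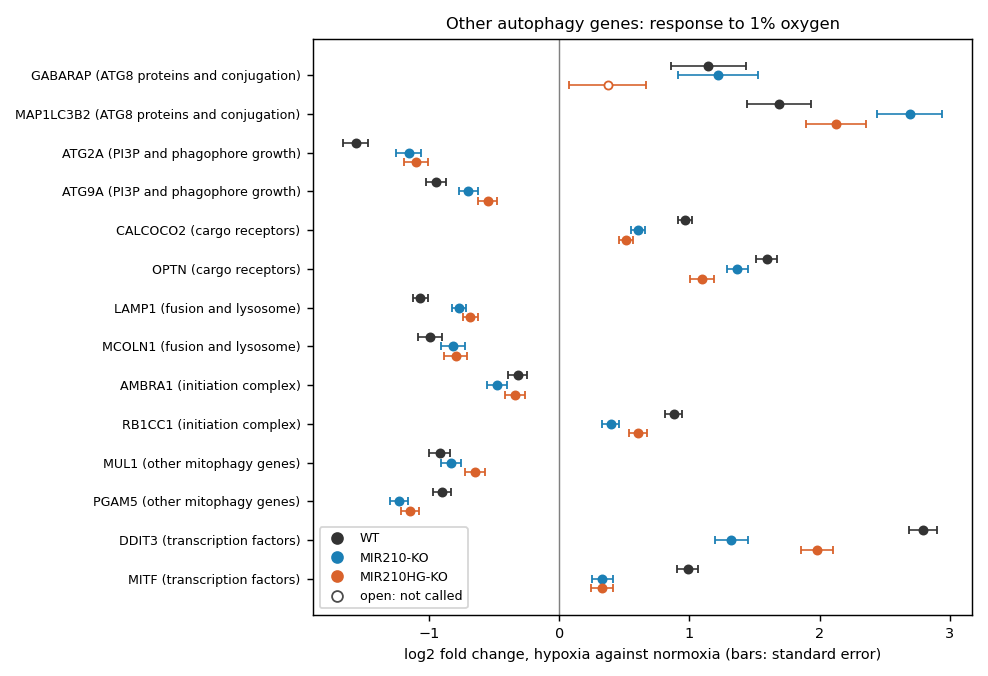
Response to 1% oxygen (log2 fold change with standard error bars) of the 14 other autophagy genes named by rule, the called pair with the largest change in WT in each of 7 lists among the genes reported, in WT (black), MIR210-KO (blue) and MIR210HG-KO (orange), open where not called. DDIT3 reaches 2.79 in WT and 1.32 in MIR210-KO, and PGAM5 lies farther left in MIR210-KO (-1.23) than in WT (-0.90).

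The 5 protein-coding genes whose log2 CPM followed BNIP3 most closely over the 24 libraries were TMEM45A (Pearson r = 0.992), INSIG2 (0.985), P4HA1 (0.977), CXCR4 (0.972) and FAM162A (0.970). The 24 points share their oxygen level and table within each set of 12, so r includes the step between the levels. TMEM45A had its highest level in hypoxia MIR210HG-KO (79.0 CPM, and 58.0 CPM in hypoxia WT), whereas P4HA1, a collagen prolyl hydroxylase, and CXCR4, a chemokine receptor, were lowest there among the hypoxia groups (236 and 46.5 CPM). Among the members, BNIP3L had r = 0.905 with BNIP3, GABARAPL1 0.598 and WIPI1 0.528. BECN1 (-0.817), PINK1 (-0.785) and ULK1 (-0.736) ran opposite to it.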

How the data were processed

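Raw read counts per gene were deposited by the authors in a table for each oxygen level, together with gene lengths and positions. The submitters' processing notes name the GRCh38 build, the aligner STAR 2.6.1d, the counter featureCounts 1.5.0-p3, and the packages edgeR 3.24.3 and DESeq2 1.20.0. The strand setting and annotation release are not given in the sources used here. RNA extraction used TRIzol and library preparation a NEBNext Ultra kit, per the labels.

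The counts were fitted with edgeR 4.0.16 (R 4.3.3): filterByExpr over 6 groups (19952 genes kept), TMM factors, a single group-mean quasi-likelihood fit to all 24 libraries, 12 comparisons with two-sided F tests, and Benjamini-Hochberg adjustment over all genes (called under 0.05). The standard error is the log2 fold change divided by the square root of F. RPKM values divide CPM by the deposited gene length. The scripts were tested on simulated counts. Alternatives were RLE and upper quartile factors, DESeq2 1.42.0, other low-count filters, fits to the compared groups, removal of the mitochondrial genome, a replicate block and leaving out each library. Leaving out 4 libraries that stand apart, and a covariate for long (8000 bases or more) against short (1500 or fewer) protein-coding genes, were chosen after seeing the data. No sample columns were left unused.

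The members, lists and rules were chosen with earlier results of these data known. The rule named all 10 members, the 2 called genes of each list with the largest change between oxygen levels in WT, and the 5 protein-coding genes best correlated with BNIP3. One gene of the lists is not reported here, and the next of its list was named in its place.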

Additional observations from a re-analysis of the deposited data

Results flagged for a closer look

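For 7 of 30 tests, a member's oxygen response differed between genotypes. In MIR210-KO against WT, where 26.5% of all genes were called, these were GABARAPL1 (-1.17), WIPI1 (-0.96) and MAP1LC3B (-0.40). In MIR210HG-KO against WT, where 22.5% of all genes were called, they were GABARAPL1 (-1.07), WIPI1 (-0.93) and BNIP3 (0.39). BNIP3 also differed between the knockouts (0.36, larger in MIR210HG-KO), where 3.54% of all genes were called.

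In 3 of the 60 groups of 4 libraries, one library lay far from the other 3 (a gap over Dixon's critical share of the range), about as many as the 1 in 20 that chance gives. BNIP3 was at 359 CPM in hypoxia MIR210HG-KO 2, where the others lay between 334 and 338 CPM. BECN1 was at 47.5 CPM in normoxia WT 3, where the others lay between 41.6 and 42.1 CPM. MAP1LC3B was at 91.4 CPM in normoxia MIR210-KO 3, where the others lay between 80.7 and 82.2 CPM.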

How the results depend on the processing

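Over the other scalings, filters, tools and fits, the replicate block included, 931 of 960 values of the members kept their side of the threshold, 16 lost a call and 13 gained one. Leaving out single libraries left 2809 of 2880 on their side. No called value changed sign (0 in either set), while uncalled values did so 19 and 65 times. The number of members called moved by more than 1.5 times in the following cases, for which the share called over all genes was not computed. For MIR210-KO against WT in normoxia it was 8 with only the groups compared. For MIR210HG-KO against WT in normoxia it was 1 with no low-count filter, and 1 to 4 when single libraries were left out. For the oxygen response in MIR210HG-KO it was 3 with the covariate for long against short genes. Without the 4 libraries that stand apart it was 5 for the difference in response of MIR210-KO from WT and 2 for that between the knockouts. For the difference of MIR210HG-KO from WT it was 3 to 5 when single libraries were left out. FUNDC1 in MIR210-KO against WT in hypoxia reversed to 0.21 without the 4 libraries. The cause of these changes was not tested.

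Upper quartile scaling moved the median of all genes by 0.142 and 0.136 (log2) in the oxygen comparisons of MIR210-KO and MIR210HG-KO, where the share of calls that were higher went from 49.8% to 64.1% and from 47.6% to 62.9%. For the interaction of MIR210HG-KO it went from 45.6% to 55.8%. WIPI1 was then called in both knockouts (0.36 and 0.39). Of the 84 other autophagy genes, 34 were called between oxygen levels in MIR210HG-KO with the covariate (57 without it), and 3 to 11 in the difference between the knockouts (5 with all libraries).

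Same-numbered libraries did not deviate together (r from -0.115 to 0.12 over 60 pairs, 2 of them over 0.1). No sign that the numbers pair the samples was thus seen, although a weak pairing could be missed in this way. With a replicate block 118 of 120 values kept their call, and GABARAPL2 in MIR210-KO against WT in normoxia (-0.15, adjusted p = 0.0426) and MAP1LC3B in the interaction of MIR210HG-KO with WT (-0.22, adjusted p = 0.0468) became called.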

Other observations

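Among the other autophagy genes, LAMP1, OPTN, ATG2A and DDIT3 also differed between genotypes at a fixed oxygen level. Genes lying near them were not compared, so the part of their chromosome regions in these differences was not tested. LAMP1 was at 75.3 ± 0.91 CPM (SD, n = 4) in normoxia WT, 164 ± 2.3 CPM in MIR210-KO and 126 ± 7.0 CPM in MIR210HG-KO, and at 35.9 ± 3.1, 96.5 ± 4.0 and 78.6 ± 3.4 CPM in hypoxia. All knockout libraries lay above all WT libraries of the same oxygen level, and the log2 differences from WT were 1.13 and 0.74 in normoxia and 1.43 and 1.13 in hypoxia (edgeR, SE 0.055 to 0.057, all called). OPTN was lower in MIR210HG-KO than in WT by 0.95 ± 0.094 in normoxia (log2 change -0.95) and by 1.44 ± 0.079 in hypoxia (-1.44), and it was 0.32 ± 0.086 higher in MIR210-KO in normoxia. ATG2A was higher than WT in MIR210HG-KO in normoxia (0.26 ± 0.091) and hypoxia (0.72 ± 0.095). In MIR210-KO it was lower in normoxia (-0.40 ± 0.092) and differed by 0.01 ± 0.096 in hypoxia (not called).

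In hypoxia the log2 difference of DDIT3 from WT was -2.28 ± 0.10 in MIR210-KO and -1.77 ± 0.10 in MIR210HG-KO, with all knockout libraries below all WT libraries. Of 15 genes of fusion and lysosomes, 8 stood above WT and 1 below it in hypoxia MIR210-KO, and 9 and 2 in MIR210HG-KO. The shares called over the whole transcriptome were 28.2% (higher) and 27.7% (lower) for MIR210-KO, with 24.4% and 30.2% for MIR210HG-KO. Of 14 cargo receptors, 2 were higher and 10 lower in MIR210-KO, and 2 and 6 in MIR210HG-KO. All 5 other genes of the initiation complex were lower than WT in MIR210-KO at 1% oxygen (median -0.63, beside 0.02 over all genes).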
